A study of Mus musculus with 6 samples.

Results

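The clusters described here are RNA 3′ ends that were read only when U1 snRNP was inhibited with an antisense morpholino oligonucleotide (AMO) against it. Sequenced 3′ ends outside chromosome M were pooled over 6 libraries. Positions within 24 nt of each other on a strand were merged, which gave 931675 clusters. A cluster belonged to the set if it had at least 5 reads in each U1 AMO library and 0 reads in all 4 control libraries. The set held 2209 clusters. Every library came from V6.5, an established mouse embryonic stem cell line (C57BL/6-129) in standard culture: 2 libraries from cells given the U1-targeting AMO, 2 given a scrambled AMO and 2 with no treatment, each pair being biological replicates per the submitters. A single cell line was used, and for AMO dose and exposure time the labels refer to an earlier study. Stem cell markers were not checked, because no gene annotation in the mm9 build of the files was used here. Clusters are therefore named by mm9 position.

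Cleavage and polyadenylation end most mRNAs: the cleavage complex recognises a hexamer, AAUAAA or a close variant, a short way upstream of the cut. Introns hold many such hexamers that are normally passed over. U1 snRNP, the particle that marks 5′ splice sites, is known to suppress cleavage at these early sites in mammalian cells, in addition to its part in splicing. An AMO that pairs with U1 snRNA blocks the particle and exposes early sites.

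Outside chromosome M the U1 AMO libraries held 15413148 and 57217428 reads, those of the scrambled AMO 26415700 and 61726804, and those of untreated cells 38331615 and 60261221. Levels are CPM, reads scaled to these totals. A level is a share of a library, so more RNA from one site and less RNA elsewhere cannot be told apart. Read names showed that replicate 1 of the U1 AMO and of the scrambled AMO shared a sequencing run, and that replicate 2 of both shared another. Each untreated library had its own run, so run and treatment cannot be told apart for untreated cells. No molecular identifiers were described, so intervals and floors cover counting error only.

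The hexamers of the set are shown first, since they are the sequence that each cleavage event is assigned to in the deposited files. These are the commonest, 5′ to 3′ on the strand of the RNA, with DNA letters. Capitals in the variants mark the base that differs from AATAAA, and positions are counted from 1 at the 5′ end.
Canonical signal: AATAAA
Variant A2T: aTtaaa
Variant A2G: aGtaaa
Variant A1T: Tataaa
Variant A5C: aataCa
Variant A1C: Cataaa

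In the set, the canonical AATAAA stood at the strongest position of 876 of the 2209 clusters (39.7%, 95% Wilson interval 37.6 to 41.7%). ATTAAA was found at 518 (23.4%, interval 21.7 to 25.3%). AGTAAA was at 142 clusters, TATAAA at 102, AATACA at 77 and CATAAA at 76. Hexamers that differ from AATAAA by a single base made up 54.6% of the set. The canonical form was thus a minority, and single-base variants were the larger part.

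For comparison, 58557 clusters had at least 5 reads in each U1 AMO library and were also read in a control. Among these, AATAAA was at 53.0%, ATTAAA at 17.0% and single-base variants together at 40.6%. AAAAAA was at 19 clusters of the U1 AMO-only set (0.860%, interval 0.551 to 1.34%) and at 3.58% of the clusters also read in controls. AATAAA or ATTAAA together were at 63.1% of the set (interval 61.1 to 65.1%), at 70.0% of the clusters also read in controls and at 44.7% of all 931675 clusters. These shares are given side by side and were not tested, since clusters are not replicates.

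The set is low in level, so the shares were also taken within bands of level. Below 0.3 CPM with the U1 AMO, the joint share of AATAAA and ATTAAA was 63.1% in the set and 62.2% in the clusters also read in controls. At 0.3 to 0.5 CPM, the band with most of the set (759 clusters), it was 59.4% in the set (interval 55.9 to 62.9%) and 63.6% in the others (62.7 to 64.6%). At 0.5 to 1 CPM it was 64.4% and 64.4%. At 2 CPM or more it was 70.1% in the set (147 clusters) and 78.7% in the others. By make-up, at 0.5 to 1 CPM AATAAA was at 39.2% of the set and 47.8% of the others, and ATTAAA at 25.2% and 16.6%. In all these shares the strongest position was taken over reads of all 6 libraries. Control reads could thus choose the hexamer in the others and never in the set. Bands of U1 AMO level do not remove this difference, and hexamers from U1 AMO reads alone were not taken.

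Reads in the set were few per cluster. The lowest, median and highest counts were 5, 9 and 255 in U1 AMO replicate 1 and 5, 20 and 1035 in replicate 2. All 4 control libraries were at 0 by the rule. The mean level over the U1 AMO libraries had a median of 0.468 CPM, with a range of 0.206 to 16.4 CPM, and 412 clusters (18.7%) reached 1 CPM. Together the 2209 clusters took 0.210% (Wilson interval 0.208 to 0.213%) and 0.138% (0.137 to 0.139%) of reads in U1 AMO replicates 1 and 2. A count of 0 over the 88142504 pooled reads of the scrambled AMO allows up to 3 counts, or 0.0340 CPM. Against that floor over the group, the clusters were at least 4.05-fold to at least 511-fold higher from pooled counts, and the median of these lower bounds was 11.7. These values chose the set and carry no test.

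The same rule with the groups exchanged found few clusters. Only 6 clusters had at least 5 reads in each scrambled AMO library and none in the U1 AMO and untreated libraries. In untreated cells alone there were 66. The libraries differ in depth: 5 reads are 0.324 and 0.0874 CPM in the U1 AMO libraries, 0.189 and 0.0810 CPM in scrambled AMO libraries, and 0.130 and 0.0830 CPM in untreated ones. The level needed was thus highest for the U1 AMO.

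The lower of the U1 AMO counts was 5 in 425 clusters of the set, and a further 715 clusters without control reads missed the rule with a lower count of 4. On the control side, 1074 clusters with enough U1 AMO reads had exactly 1 control read and 736 had 2. AATAAA or ATTAAA was at 61.6% of the 425 clusters just inside and 61.7% of the 715 just outside. It was at 70.4% of the 1074 with 1 control read. Without U1 AMO replicate 1, the shallower library, the rule would have taken 8070 clusters.

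**Figure D1:**
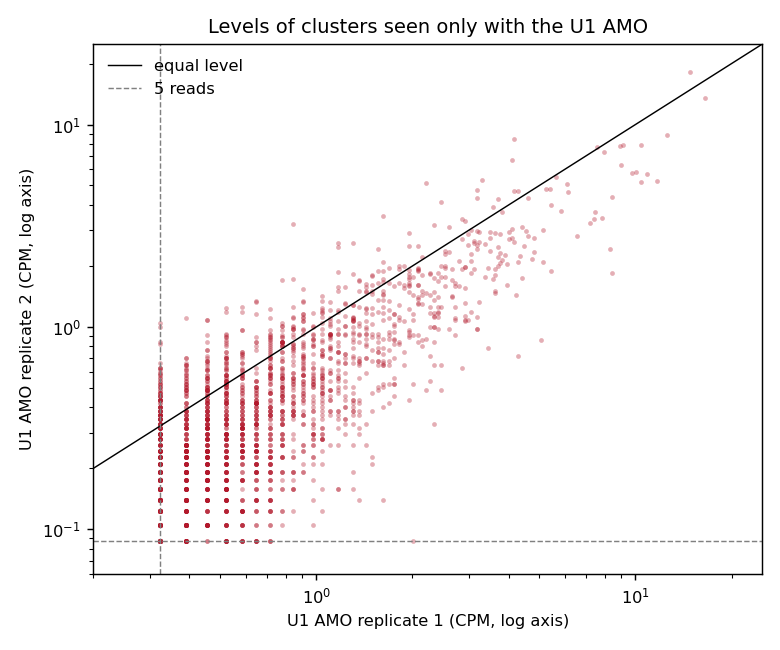
Level of each of the 2209 clusters in U1 AMO replicate 1 (x axis) and replicate 2 (y axis), in CPM on log axes; dashed lines mark 5 reads and the solid line equal levels. Most points lie below the line: 1852 clusters had the higher CPM in replicate 1.

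The place of cleavage was shared between the replicates in most clusters. The strongest position was the same base in both U1 AMO libraries at 1244 clusters (56.3%) and within 2 nt at 1744 (78.9%). It was more than 10 nt apart at 100. Joining keeps the positions of a cluster close together, and ties went to the lowest coordinate in both libraries. Both can raise these shares. In the clusters also read in controls, which have more reads, the strongest base was the same at 71.8%. The level was within 2-fold between the replicates at 1256 clusters (56.9%), and it was higher in replicate 1 at 1852 (83.8%). The median log2 ratio of replicate 1 to replicate 2 was 0.84 in the set and 0.31 in the clusters also read in controls. The part of the higher CPM needed in replicate 1 in this ratio was not tested.

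The clusters were narrow but rarely a single base. Their median width was 13 nt (range 1 to 86), with a median of 7 distinct positions, and only 4 clusters had a single position. Clusters also read in controls had a median width of 20 nt and 12 positions. Width was greater at higher levels: the median was 10 nt below 0.3 CPM and 18 nt at 2 CPM or more, against 12 and 26 nt in the others. Width and positions count reads of all 6 libraries, so control reads could widen the others and never the set. Bands of U1 AMO level do not remove this difference, and widths from U1 AMO reads alone were not taken. All positions of a cluster pointed to the same place of the hexamer at 1858 clusters (84.1%), against 65.4% of the others. This count also used positions of all 6 libraries, and more positions leave more room for another place. These shares were not matched for width or number of positions. The strongest position held a median of 43.2% of a cluster's reads.

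The distance from the hexamer to the strongest position had a median of 22 nt, with quartiles of 19 and 25 nt. The clusters also read in controls had a median of 21 nt and the same quartiles. Here too control reads could choose the strongest position in the others and never in the set. The deposited files do not say which end of the hexamer the distance is counted from. It lay between 10 and 30 nt at 91.3% of the set, at 87.0% of the others and at 93.8% of the 10359 strong clusters, whose mean over the 6 libraries reached 10 CPM. The median of the strong clusters was 21 nt.

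**Figure D2:**
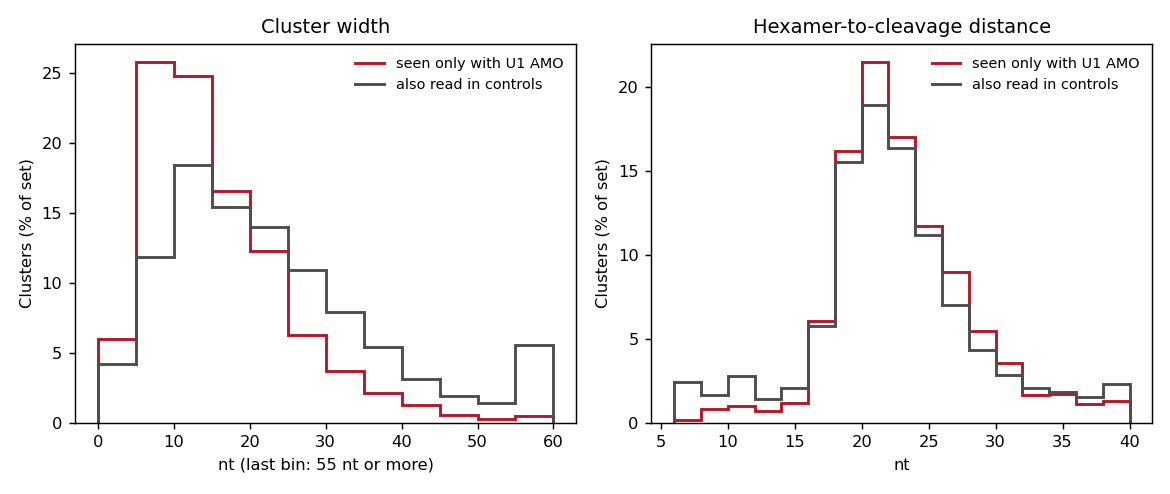
Width of clusters (left) and distance from the deposited hexamer to the strongest position (right), both in nt, as percent of the 2209 clusters seen only with the U1 AMO (red) and of the 58557 also read in controls (grey). The red widths peak lower, with a median of 13 against 20 nt, and the distance medians are 22 and 21 nt. Widths and strongest positions take in reads of all 6 libraries, and only the grey set has control reads.

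The 10 highest clusters show the range of signals. The highest was chr5:140902935-140902948 on the plus strand, with 228 and 1035 reads (16.4 ± 2.33 CPM; SD, n = 2), and its hexamer ATTAAA lay 22 nt from the strongest base. All of its control libraries were at 0, and it was at least 511-fold higher than the scrambled AMO floor. The cluster chrX:71483956-71483973 (minus strand) had 255 and 776 reads (15.1 ± 2.11 CPM), also with ATTAAA. The cluster chrX:7721939-7721958 (minus strand) had 193 and 505 reads (10.7 ± 2.61 CPM) with AATAAA at 17 nt. These 3 clusters were the only ones in the set above 10 CPM, and in each the strongest base was the same in both replicates.

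The next 7 lay between 7.79 and 9.14 CPM. AATAAA stood at chr2:28701069-28701102 (160 and 452 reads), chr6:29537228-29537271 (141 and 452), chr4:132052668-132052691 (138 and 448) and chr1:88252329-88252366 (167 and 325). AATACA stood at chr6:70795328-70795387 (180 and 301 reads), AGTAAA at chr12:3236295-3236318 (155 and 332) and ATTAAA at chr11:85046593-85046616 (160 and 297). Among the 10, only chr6:70795328-70795387 differed by more than 2-fold between replicates, at 11.7 and 5.26 CPM. At the lower edge, chr1:90911649-90911662 and chr10:93340499-93340506 (both minus strand) had 5 reads in each U1 AMO library. The most positions, 28 over 50 nt, were in chr2:121855547-121855596, with 54 and 169 reads and the hexamer AATGAA.

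Clusters of the set came in runs along the same strand. Joining neighbours at gaps of at most 10 kb gave 385 runs of 2 or more, which held 978 clusters (44.3%), and 119 runs had 3 or more. Runs were not counted in other clusters, so this share is not read as particular to the set. In 263 cases the next cluster of the set lay within 1 kb. The largest run had 8 clusters over 11.2 kb on the minus strand of chromosome 10 (chr10:117135546-117146709), with 223 and 614 reads in all. Its strongest member, chr10:117139915-117139928, had 139 and 362 reads and the hexamer AATACA, and the other 7 had between 6 and 23 reads in replicate 1.

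A run of 7 clusters spanned 9.76 kb on the plus strand of chromosome 16 (chr16:16984225-16993983; 194 and 606 reads). Of its 7 clusters, 5 stood at the upstream end and the other two at the downstream end. Another run of 7 spanned 8.97 kb on the plus strand of chromosome 5 (chr5:43627072-43636042; 152 and 223 reads). Its last member, chr5:43636006-43636042, was the highest at 61 and 92 reads. Hexamers were mixed within each run, and the 8 clusters of the chromosome 10 run used 6 different ones.

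**Figure D3:**
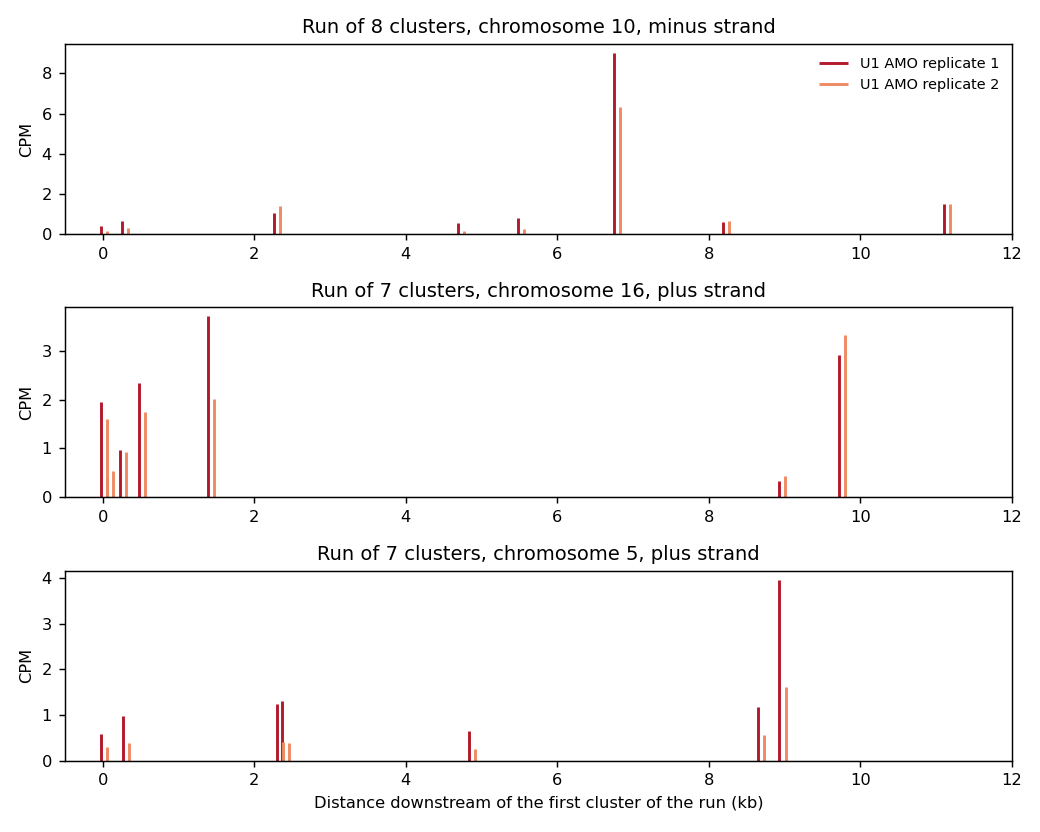
Level (CPM, bars from 0) of each cluster in the 3 largest runs of clusters seen only with the U1 AMO, against distance in kb downstream of the first cluster of the run; the bars of the replicates are drawn side by side. Each run shows clusters of unequal height, and the tallest, on chromosome 10, reached 9.02 and 6.33 CPM.

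Most clusters of the set lay some way upstream of a strong site on the same strand. The nearest strong cluster downstream was within 50 kb for 1405 of the 2209 (63.6%, Wilson interval 61.6 to 65.6%), and the median distance was 30.9 kb. In 481 cases it was beyond 100 kb. On the upstream side a strong same-strand cluster lay within 50 kb for only 22.0%, and the median distance was 231 kb. Where both sides had a strong cluster, the downstream one was nearer for 1704 of 2195 (77.6%).

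Clusters also read in controls and under 10 mean CPM served for comparison (48211). Of these, 40.8% had a strong cluster within 50 kb downstream and 29.1% upstream, and the downstream one was nearer in 58.1%. Very close to strong sites the order was the other way: a strong cluster lay within 1 kb downstream of 9 clusters of the set (0.407%) and of 8.84% of the others. It was within 5 kb for 8.19% and 17.3%, within 10 kb for 19.0% and 21.8%, and within 20 kb for 37.6% and 28.5%. The set thus had a smaller share next to strong sites than the others, and a larger one between 10 and 50 kb ahead of them. The joining of positions also works against members right beside a site read in controls.

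**Figure D4:**
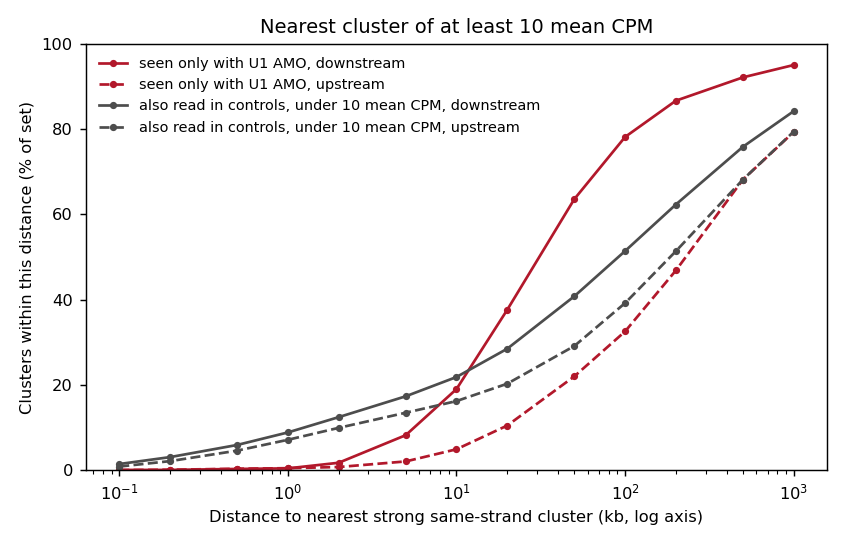
Cumulative percent of clusters whose nearest strong same-strand cluster (at least 10 mean CPM) lies within the distance on the x axis (kb, log axis), downstream (solid) and upstream (dashed), for the 2209 clusters seen only with the U1 AMO (red) and 48211 weaker clusters also read in controls (grey). At 50 kb the red lines stand at 63.6% and 22.0%, the grey ones at 40.8% and 29.1%.

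The 1405 clusters within 50 kb shared 965 strong downstream clusters, 9.32% of all strong ones. Of these, 270 had 2 or more members of the set as their nearest upstream partners, up to 8. In 701 of the 1405 cases no other cluster of at least 1 mean CPM lay between the member and its strong cluster.

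The reads of the strong downstream sites did not choose the set, but the mean that makes a site strong includes the U1 AMO libraries. Summed over the 965, the U1 AMO libraries stood at 118282 and 123569 CPM, the scrambled AMO libraries at 118142 and 125331, and the untreated libraries at 118060 and 124365. The groups overlapped. Divided by the scrambled AMO, the U1 AMO sum was 1.001 in the run of replicate 1 and 0.986 in that of replicate 2 (two-sided exact permutation p = 1; 2 libraries against 2 cannot go below 0.333). With strong sites defined by the 4 control libraries (chosen after seeing the data), the U1 AMO sum over 960 sites was 0.992 and 0.978 times that of the scrambled AMO within the runs (exact permutation p = 0.667).

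Per cluster, 14 of the 965 (1.45%) rose with the U1 AMO and none fell in the quasi-likelihood test of edgeR over all 80119 clusters, where 0.565% of all clusters and 0.589% of the strong ones rose. At an unadjusted p under 0.05 there were 32 of the 965. By DESeq2 20 rose and none fell, where 3.86% of all clusters and 1.2% of the strong ones rose. All of the 14 were strong through their U1 AMO reads, so their calls are a description: when strong sites were defined by the 4 control libraries (chosen after seeing the data), 0 of 960 were called by edgeR, with 13 at an unadjusted p under 0.05, and 4 rose by DESeq2. Their log2 fold changes ran between 3.63 and 9.62. The most abundant, chr1:88252633-88252713 (minus strand), lies just upstream of one of the 10 highest members on chromosome 1 and had 108 and 124.4 CPM with the U1 AMO, 2.31 and 1.15 CPM in scrambled AMO libraries, and 0.365 and 0.962 CPM in untreated ones. The steepest was chr8:124430112-124430134 (minus strand), which had 32.2 and 28.7 CPM with the U1 AMO, 0.0379 and 0.0324 CPM in scrambled AMO libraries and no reads in untreated ones (log2 fold change 9.62 ± 0.53, SE; adjusted p = 0.0215 in edgeR). Without scrambled AMO replicate 2 none of the 965 was called by edgeR, with 20 at an unadjusted p under 0.05.

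When the 4 AMO libraries were fitted with a term for the run, which leaves 1 residual degree of freedom, 62 of the 965 rose (6.42%) and 77 fell (7.98%). Among all strong clusters 4.57% rose and 9.26% fell in that fit, and among all 68692 clusters 13.0% rose and 2.05% fell. The share of falls was thus close to, and below, that of strong clusters in general. Sites among the 965 could be strong through their U1 AMO reads, so the rises are a description. By the 4 control libraries (chosen after seeing the data), 42 of 960 strong downstream sites rose (4.375%) and 77 fell (8.02%) in that fit. The median log2 fold change in the 6-library fit was -0.13 over the 965 and -0.17 over all strong clusters.

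None of the 10 strong sites ahead of the highest clusters passed the threshold in the 6-library edgeR fit. Ahead of chr5:140902935-140902948, at 16.4 kb, chr5:140919303-140919332 had 288 and 410 CPM with the U1 AMO, 387 and 517 CPM in scrambled AMO libraries, and 252 and 291 CPM in untreated ones. The groups overlapped, and the log2 fold change was -0.39 ± 0.37 (SE; adjusted p = 1 in edgeR). Within each run the U1 AMO library was lower than the scrambled AMO library. With a term for the run the log2 fold change was -0.40 ± 0.13 (SE; adjusted p = 0.0517 in edgeR). The site chrX:71468793-71468819 had 175 and 168 CPM with the U1 AMO, 173 and 209 CPM in scrambled AMO libraries, and 187 and 164 CPM in untreated ones, at 15.2 kb. Of the sites beyond 50 kb, chr2:28760683-28760751, at 59.7 kb, had 16.3 and 26.4 CPM with the U1 AMO, 25.1 and 33.3 CPM in scrambled AMO libraries, and 28.5 and 35.2 CPM in untreated ones. The site chr6:71235303-71235327, at 440 kb, had 14.5 and 9.73 CPM with the U1 AMO, 24.7 and 11.7 CPM in scrambled AMO libraries, and 24.1 and 80.9 CPM in untreated ones. The AMO groups overlapped at both. With a term for the run, both were lower with the U1 AMO (log2 fold changes of -0.49 ± 0.15 and -0.53 ± 0.17, SE; adjusted p = 0.0355 and 0.0450 in edgeR), while the adjusted p of both was 1 in the 6-library fit. A different pattern was seen at chr12:3238262-3238289, 1.97 kb downstream of chr12:3236295-3236318. It had 22.1 and 22.0 CPM with the U1 AMO, 6.32 and 5.51 CPM in scrambled AMO libraries, and 9.37 and 9.29 CPM in untreated ones. Every control library was under 10 CPM, so this site was strong through its U1 AMO reads. Its values and adjusted p are therefore a description. The U1 AMO libraries lay above all controls there, with a log2 fold change of 1.87 ± 0.32 (SE), and an adjusted p of 0.0604 in edgeR. The adjusted p was 3.02e-06 in DESeq2 and ran between 6.76e-07 and 0.449 over the alternatives.

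Clusters around the set were also read more with the U1 AMO. The 16071 same-strand clusters within 5 kb that were not in the set summed to 57519 and 55375 CPM in U1 AMO libraries, 48677 and 49237 CPM in scrambled AMO libraries, and 41962 and 41810 CPM in untreated ones. Both U1 AMO libraries lay above all controls. Within the runs the U1 AMO sum was 1.18 and 1.12 times that of the scrambled AMO (two-sided exact permutation p = 0.333, the smallest possible). Most of this sum came from strong sites. Without them (chosen after seeing the data) the sums were 5183 and 4139 CPM with the U1 AMO, 1304 and 1024 CPM in scrambled AMO libraries, and 854 and 864 CPM in untreated ones, with within-run ratios of 3.97 and 4.04.

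Of these 15849 weaker neighbours, 8642 were read only with the U1 AMO, below the limit of the rule, and 2441 only in controls. These counts were not taken over all weaker clusters, so nothing about the neighbours is read from them. The sum over the 7207 with a control read was still higher with the U1 AMO, at 4759 and 3794 CPM against the same 1304 and 1024 CPM for the scrambled AMO, with within-run ratios of 3.65 and 3.70. Per cluster, 2060 of the 16071 neighbours passed the filter on low counts. A weak neighbour can pass it through its U1 AMO reads alone and then has to be higher, so the counts that follow are a description and nothing is read from them against the background. In edgeR 145 were called higher (7.04%, background 0.565%) and none lower, and 1064 had an unadjusted p under 0.05. In DESeq2 605 were called higher (29.4%, background 3.86%) and none lower. With run as a term, 1125 of 1898 were called higher (59.3%, background 13.0%) and 15 lower (0.790%, background 2.05%). The 145 became 0 without scrambled AMO replicate 2 (746 at an unadjusted p under 0.05), 48 without its replicate 1, 40 and 318 without U1 AMO replicates 2 and 1, and 562 and 582 without untreated replicates 1 and 2.

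The difference was greatest close to the set and on its own strand. Each weaker cluster was assigned to its nearest cluster of the set. The sums by distance include clusters read only with the U1 AMO that missed the rule, which raises the ratios. Sums over clusters with a control read were not taken by distance. In the 1 kb upstream on the same strand, the sums were 1370 and 1011 CPM with the U1 AMO, 105 and 59.2 CPM in scrambled AMO libraries, and 27.4 and 19.1 CPM in untreated ones, a ratio of 14.5 between the AMO groups. In the 1 kb downstream the U1 AMO sums were 946 and 731 CPM, those of the scrambled AMO 68.2 and 45.1 CPM and those of untreated cells 33.7 and 32.1 CPM, a ratio of 14.8. At 1 to 5 kb the ratio was 3.20 upstream and 2.29 downstream, and at 5 to 20 kb it was 1.37 and 1.26. All clusters under 10 mean CPM outside the set had a ratio of 1.16.

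On the opposite strand the ratio was 1.45 in the 1 kb on the upstream side and 1.11 in the 1 kb on the downstream side. Further upstream on that strand, at 1 to 5 kb, the sums were 697 and 504 CPM with the U1 AMO, 336 and 249 CPM in scrambled AMO libraries, and 203 and 214 CPM in untreated ones, with within-run ratios of 2.08 and 2.03. Both U1 AMO libraries were above all controls. At the same distance on the downstream side the sums were 185 and 153 CPM in U1 AMO libraries and 162 and 133 CPM in scrambled AMO libraries. These overlapped, and the within-run ratios were 1.14 and 1.15. The larger opposite-strand ratio was thus on the 5′ side of the set, in the divergent arrangement. No test compared the sides.

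**Figure D5:**
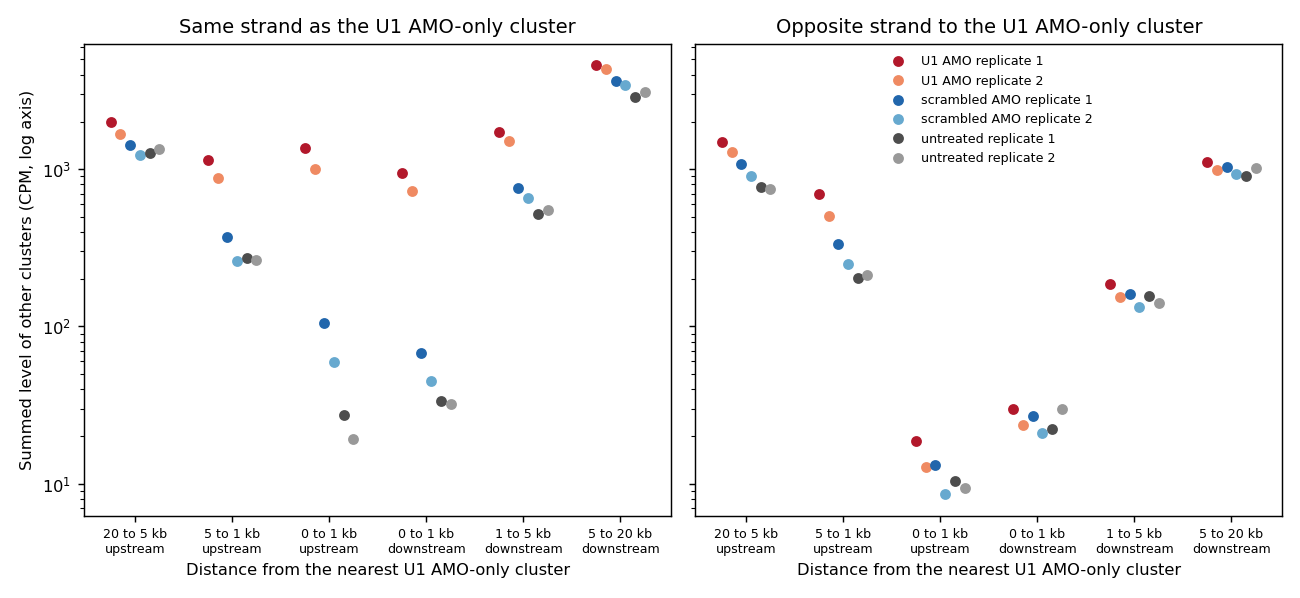
Summed level (CPM, log axis) of clusters under 10 mean CPM outside the set, by distance from the nearest cluster of the set, on the same strand (left) and the opposite strand (right); each point is a library. Within 1 kb on the same strand the U1 AMO libraries stand at 731 to 1370 CPM and all controls at 105 or less.

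Pairs within the set had that orientation too. Within 5 kb there were 12 divergent pairs, a minus-strand member with a plus-strand member to its right, and 0 convergent pairs. The closest were chr14:73724920-73724933 (minus; 15 and 20 reads) and chr14:73726545-73726567 (plus; 5 and 17 reads), whose strongest bases lay 1639 nt apart. The second pair, 1852 nt apart, joined chrX:7721939-7721958 (193 and 505 reads) with chrX:7723805-7723823 (plus; 7 and 16 reads). The third, 2204 nt apart, joined chr12:109416523-109416544 (minus; 55 and 99 reads) with chr12:109418737-109418761 (plus; 87 and 314 reads). Levels within a pair could thus differ widely. Only 19 of the 2209 clusters were in such pairs. Pairs were not counted in other clusters either.

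In the edgeR fit, 1618 of the 2209 clusters passed the filter on low counts, and 45 of these had an adjusted p under 0.05, where 0.565% of all clusters rose. That contrast chose the set, so the count is a description.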

How the data were processed

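Per the submitters' processing notes, the authors used cutadapt and Bowtie with build mm9, with no versions stated. The deposited read counts are whole numbers per stranded position, not normalized, with 1 file per library. Each position carries a deposited hexamer (36 kinds), its distance (6 to 40 nt) and a deposited whole-number score from 0 to 10 whose meaning is not stated. How positions were filtered is not given. Per the labels' protocols, poly(A) RNA was cut with RNase T1, reverse transcribed, circularised and amplified by PCR.

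Positions outside chromosome M were joined at up to 24 nt and counts summed per library. Depth was 15413148 to 61726804 reads. Distances run between strongest positions. All clusters were tested with edgeR 4.0.16 (R 4.3.3; quasi-likelihood, TMM, filterByExpr, Benjamini-Hochberg, 0.05) in 1 fit of 6 libraries; DESeq2 1.42.0 was an alternative. Standard errors come from the log2 fold change and F. Tested on simulated counts, edgeR recovered the changes at low dispersion and few of the smaller ones at high dispersion. The common dispersion of the 6-library fit was 0.329, near the high setting, so a cluster not called may still differ. Changes were simulated only in clusters above a minimum level, so recovery in weaker clusters was not tested. Other values came from scipy 1.17.1, numpy 2.4.6 and pandas 2.3.3 in Python 3.11.15; shares have Wilson intervals. Within the AMO groups, deviations of same-numbered libraries correlated at r = 0.77 over 29444 clusters, and they shared a run.

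The set, the lists and the tests were chosen with earlier results of these data known. Named were the 10 highest members, the 3 largest runs, the 3 closest divergent pairs, the member with most positions, 2 at the lower edge, and the strong sites ahead of the 10 highest; the 2 called downstream sites on chromosomes 1 and 8 were chosen after their values were seen. Chromosome 18 members (85) were counted and not named.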

Additional observations from a re-analysis of the deposited data

How the results depend on the processing

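The number of clusters seen only with the U1 AMO was 2209. It became 4137 with at least 3 reads in each U1 AMO library and 967 with at least 10, and lay between 1590 and 3283 with another joining distance, 1 control read allowed, or only positions with a score of 5 or less. Leaving out a library gave 2276 to 8070, the highest without U1 AMO replicate 1, the shallowest. The median spacing was 22 nt in each of these. The share within 50 kb of a strong downstream cluster was 54.0% with scores of 5 or less, 55.6% without U1 AMO replicate 1, and 68.3% and 55.1% with strong set at 5 and 20 mean CPM. For the sum over strong downstream clusters, the U1 AMO minus scrambled AMO difference of -811 CPM lay between -4405 and 2784 with a library left out (2784 without scrambled AMO replicate 2 and 1833 without U1 AMO replicate 1, both turned to higher). The sum over neighbours was higher with the U1 AMO under every alternative run. Of all clusters, 453 were called for U1 AMO against scrambled AMO. This became 3090 with DESeq2, 695 with RLE factors, 2904 without the low-count filter and 2378 from the AMO groups only. A block for replicate number gave 0 in 6 libraries (5688 at an unadjusted p under 0.05) and 10331 in the 4 AMO libraries, where it is also the run. Leaving out a library gave 0 to 2950: 2789 and 2950 without untreated replicates 1 and 2, 113 and 0 without those of the scrambled AMO (4619 at an unadjusted p under 0.05 for the 0), and 1138 and 99 without those of the U1 AMO. The 14 strong downstream clusters called became 0 and 139 under these replicate blocks, 0 with strong sites defined by controls (chosen after seeing the data), and 0 to 17 with a library left out. The 145 neighbours called became 605 with DESeq2, 588 without the filter, 496 with the 4 libraries alone, 0 and 1140 under the blocks, and 0 to 582 with a library left out. The same numbers did not pair untreated with U1 AMO libraries (r = -0.37), and the cause of the other shifts was not tested. The low depth of U1 AMO replicate 1 limits the set to sites with at least 0.324 CPM, or 5 reads, in that library.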

Other observations

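Clusters seen only with the U1 AMO were found on every autosome and on chromosome X. They made up 3.64% of all 60766 clusters with at least 5 reads in each U1 AMO library. Chromosome Y had 0 of 23 such clusters. On the other chromosomes the share ran from 2.64% on chromosome X and 2.65% on chromosome 7 to 4.40% on chromosome 18. The strands were nearly even, with 1140 clusters on the plus strand and 1069 on the minus strand.

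The deposited score of 0 to 10 had a median of 5 at the strongest positions of the set, the same as in the clusters also read in controls. Scores of 8 to 10 were found at 12.8% of the set, 17.5% of the clusters also read in controls and 26.3% of all clusters. Strongest positions were again taken over reads of all 6 libraries. The 66 clusters seen only in untreated cells were narrower than the U1 AMO-only set, with a median width of 6 nt and 3 positions, against 13 nt and 7 positions. These widths were not matched for level or number of reads, and width was greater at higher levels in the set. AATAAA stood at 33 of these 66.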
